A study of Mus musculus with 19 samples.

Results

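The kinases that phosphorylate myosin light chains (Mylk4, Mylk3 and Mylk) and the light chains of ventricular myosin (Myl2 and Myl3) were followed in reperfused mouse hearts. Each of these 5 genes was read by 1 probe set, the only one that the platform annotation assigned to that symbol alone, out of 22180 genes tested. The genes were chosen by symbol with their measured differences between these groups already known, and where a symbol had several probe sets the highest mean level would have decided. In the hearts used here, buffer was perfused backwards through the aorta by the Langendorff method, flow was stopped for 20 min after 20 min of stabilisation, and hearts were frozen after 20 min of reperfusion. Hearts came from wild-type C57Bl6J animals at lights on (ZT0, n = 7) or lights off (ZT12, n = 7), and from Rev-erb alpha knockout animals at ZT12 only (n = 5). Every group had gone through ischemia and reperfusion, no knockout heart at ZT0 was analysed here, and the labels give neither the construct nor the strain of the knockout, nor the age of any animal. Values are log2 RMA intensities, 1 array per heart, and levels of different probe sets were not set against each other.

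Myosin is the motor of the thick filament, and each of its heads carries a regulatory and an essential light chain on its lever arm. Phosphorylation of the regulatory light chain by a calmodulin-dependent light chain kinase moves heads toward actin and raises the force produced at a given calcium level, and the myosin phosphatase reverses it. Mylk3 encodes the cardiac kinase, Mylk the smooth muscle and non-muscle kinase, and Mylk4 a further member of the family enriched in striated muscle. REV-ERB alpha, the product of Nr1d1, is a clock repressor that binds response elements built around the sequence AGGTCA.

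The tissue and the labels were checked first. Myh6, the main cardiac heavy chain of the mouse, averaged 11.92 at ZT0, 11.90 at ZT12 and 11.95 in the knockout. Of 10 cardiomyocyte markers 0 passed the test in any comparison, against 0.730% to 1.34% of all genes. Arntl, which REV-ERB alpha represses, lay between 3.72 and 4.31 in wild-type hearts at ZT12 and between 6.28 and 6.77 in knockout hearts. Nr1d1 itself lay at 6.35, 6.40, 6.30, 6.36 and 6.51 in the knockout hearts, within reach of the 6.46 to 7.28 of wild-type hearts at ZT12. Whether its probes lie in the deleted part is not given in the sources used here, so this reading does not check the genotype. Atrial marker levels varied between hearts. The mean of 9 atrial markers ran from 7.56 to 8.85 at ZT0, from 5.67 to 8.68 at ZT12 and from 5.28 to 8.59 in the knockout, and 2 ZT12 hearts (replicates 3 and 5) and 3 knockout hearts (replicates 2, 4 and 5) lay more than 1 log2 unit below the median of all hearts. In such whole-tissue samples, fewer cells of a type and less RNA per cell cannot be told apart.

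Mylk4 was the member whose level differed between the groups. At ZT0 its lowest, median and highest values were 7.10, 7.29 and 7.54. At ZT12 they were 7.81, 7.96 and 8.19 in wild-type hearts. The 5 knockout hearts at ZT12 read 7.02, 6.92, 7.11, 6.62 and 6.68. All wild-type ZT12 hearts thus lay above every heart of both other groups, while the highest knockout heart (7.11) and the lowest ZT0 heart (7.10) met. The order of the group means was knockout at ZT12 (6.87 ± 0.21, SD, n = 5), wild type at ZT0 (7.32 ± 0.16, SD, n = 7) and wild type at ZT12 (7.96 ± 0.13, SD, n = 7).

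**Figure D1:**
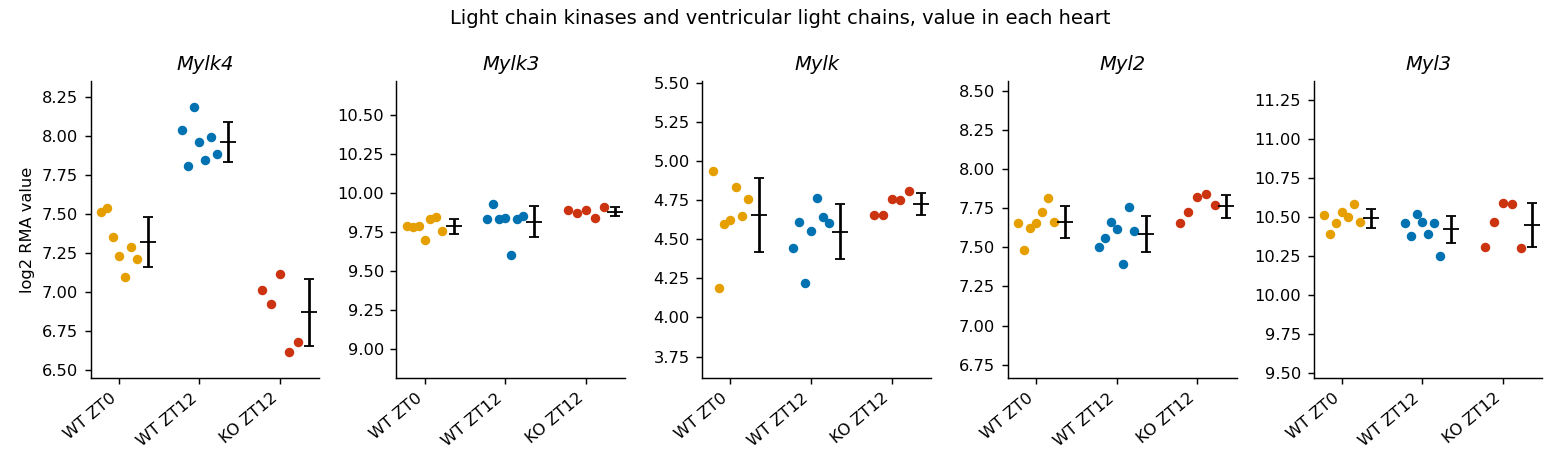
Log2 RMA value (y axis, the same span in every panel) of each of the 5 genes in each heart (points) by group (x axis), with the group mean ± SD beside the points. Mylk4 forms separate bands for wild-type hearts at ZT12 (7.81 to 8.19) and the other hearts (6.62 to 7.54), and the other 4 genes overlap between all groups.

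Between the times of day, Mylk4 rose 1.56-fold at ZT12 (log2 difference 0.64, SE 0.089; limma adjusted p = 0.000256, 95% interval of the fold 1.37 to 1.77). It was the only one of the 5 genes to pass in that comparison, with 0 lower and 4 not passing, where 1.13% of all genes were called, 0.645% higher and 0.482% lower. All 7 ZT12 hearts lay above all 7 ZT0 hearts, as was so for 0.528% of all genes, and 0 of the 5 genes lay wholly below (0.374% of all genes). In the knockout at ZT12, Mylk4 fell 2.13-fold from the wild-type level at the same time (log2 difference -1.09, SE 0.097; limma adjusted p = 1.46e-06, interval of the fold 1.85 to 2.45). Of the 5 genes 0 rose and 4 did not pass there, against 0.730% of all genes called, 0.442% higher and 0.289% lower. Groups that did not overlap, with the knockout lower, were found for 0.428% of all genes and for 1 of the 5, Mylk4. With the knockout higher they were found for 0.969% of all genes and 0 of the 5. By the size of this difference Mylk4 ranked 15 among the 22180 genes, and by its p-value 4. Both calls held in every alternative processing tried and without any single heart. The 5 genes were proposed with earlier results of these arrays known, so these calls, and every p-value on Mylk4, describe the fit and are no independent support.

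Against wild-type hearts at ZT0, Mylk4 was 1.37-fold lower in knockout hearts at ZT12 (log2 difference -0.45, SE 0.097; limma adjusted p = 0.0197), in a comparison where 1.34% of all genes were called, 0.379% lower and 0.965% higher. The other 4 genes did not pass, and 0 of the 5 had groups without overlap, against 0.532% of all genes with the knockout wholly lower and 1.19% wholly higher. Of the 9 atrial markers 8 lay lower in the knockout here without passing, 1 (Gpr22) was called higher, and their median difference was -1.55. Whether atrial content caused the Mylk4 difference was not tested, and fits that took these markers into account follow. This call was lost without knockout replicate 4 (adjusted p = 0.0781) or 5 (0.0706), the hearts with the lowest Mylk4, with only the arrays compared (0.0622) and with the atrial marker mean as a covariate (0.214). Without the 5 hearts low in atrial markers the difference was -0.26 (adjusted p = 0.527, 2 knockout hearts left). The comparisons share groups and are not independent of each other.

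**Figure D2:**
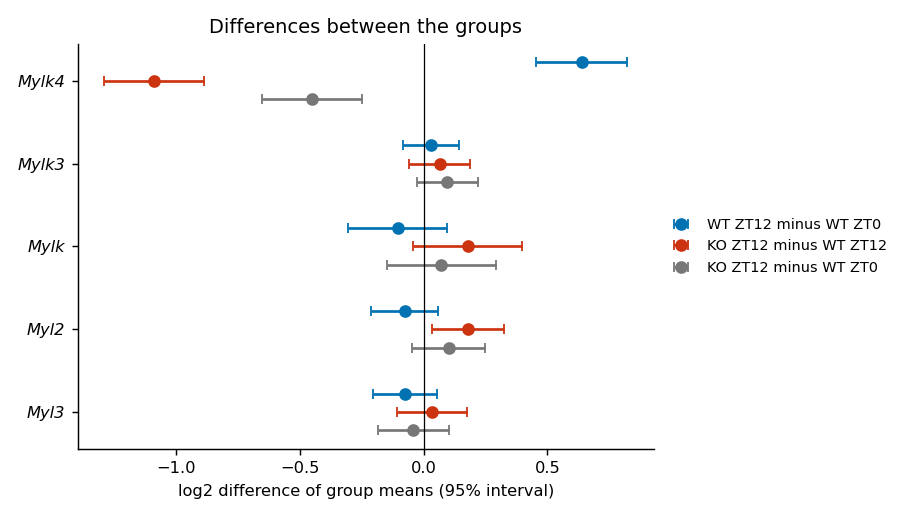
Log2 difference of group means (x axis, points) with its 95% interval from limma (bars) for the 5 genes in the 3 comparisons. The intervals of Mylk4 lie away from 0 on the upper side for ZT12 against ZT0 and on the lower side for the knockout, and those of Mylk3, Mylk and Myl3 include 0.

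The Mylk4 values are given beside the atrial markers because hearts low in the mean of all 9 were unevenly spread. They numbered 0 at ZT0, 2 at ZT12 and 3 in the knockout. Bmp10 alone split the hearts otherwise. It was also low in hearts not counted here: 3.86 in ZT0 replicate 1, 3.42 and 3.70 in ZT12 replicates 4 and 6, and 4.15 in knockout replicate 3. Where 1.13% and 0.730% of all genes were called, 0 of the 9 markers passed between the wild-type groups or between the genotypes at ZT12. In each comparison 8 had a negative and 1 a positive difference, with medians of -0.69 and -0.94. Among wild-type hearts at ZT12, Mylk4 read 7.85 and 8.19 in the 2 hearts low in atrial markers and 7.81 to 8.04 in the other 5. Among knockout hearts it read 6.62, 6.68 and 6.92 in the 3 low hearts and 7.02 and 7.11 in the other 2. Since no heart overlapped between these groups at ZT12, any split of the hearts keeps their ranges apart. Without the 5 low hearts the fall in the knockout was -0.87 (limma adjusted p = 0.00522, 2 knockout hearts left), against -1.09 with all hearts. Whether atrial content caused the difference was not tested.

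**Figure D3:**
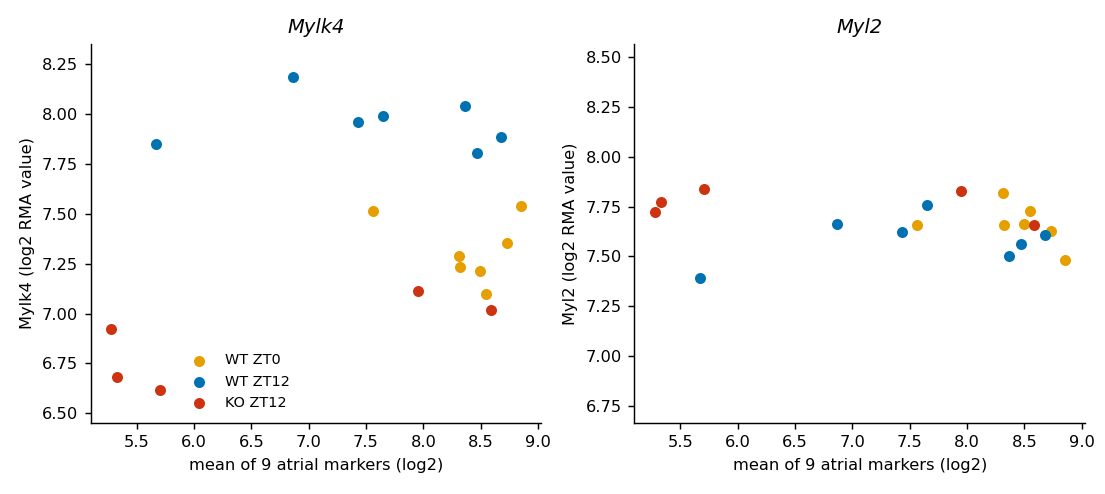
Log2 RMA value of Mylk4 (left) and Myl2 (right) in each heart (y axes, the same span) against the mean log2 value of 9 atrial markers in that heart (x axis), coloured by group. Knockout hearts lie below wild-type ZT12 hearts for Mylk4, and Myl2 stays between 7.39 and 7.84 throughout.

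The stretch before the start of Mylk4 is shown because this gene moved with both clock time and genotype, beside those of Mylk3 and of the essential light chain Myl3, which did not pass. Each is the 250 bases upstream of an annotated start in RefSeq (GRCm38.p6), written 5′ to 3′ on the gene's strand. Mylk4 lies on chromosome 13 (start 32700824, end 32806773), Mylk3 on chromosome 8 (start 85324928, end 85386340) and Myl3 on chromosome 9 (start 110763678, end 110769802). For Mylk4 and Mylk3 the start used lies inside the gene's span. Capitals mark matches to the motifs named after the sequences.
Mylk4, chr13:32783965-32784214, minus strand: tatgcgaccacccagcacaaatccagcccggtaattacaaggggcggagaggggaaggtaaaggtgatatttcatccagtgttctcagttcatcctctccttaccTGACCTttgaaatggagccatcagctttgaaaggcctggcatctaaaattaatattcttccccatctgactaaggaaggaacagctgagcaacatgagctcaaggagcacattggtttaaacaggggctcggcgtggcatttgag
Mylk3, chr8:85381042-85381291, minus strand: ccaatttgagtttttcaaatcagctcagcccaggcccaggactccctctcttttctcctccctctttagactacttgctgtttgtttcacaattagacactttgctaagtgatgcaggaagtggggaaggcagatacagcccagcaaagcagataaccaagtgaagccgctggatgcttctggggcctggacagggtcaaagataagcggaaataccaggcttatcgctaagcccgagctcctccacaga
Myl3, chr9:110763428-110763677, plus strand: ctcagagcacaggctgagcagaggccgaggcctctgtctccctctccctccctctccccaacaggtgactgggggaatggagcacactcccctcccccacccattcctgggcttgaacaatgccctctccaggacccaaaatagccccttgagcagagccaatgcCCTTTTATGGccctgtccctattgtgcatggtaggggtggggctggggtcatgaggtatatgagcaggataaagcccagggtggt

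The motifs searched on both strands in all 7 windows of the 5 genes were the E-box CACGTG, the nuclear receptor core AGGTCA, the D-box TTANGTAA, the RORE, in which an A- and T-rich stretch precedes the receptor core or a close variant of it, and the CArG box of muscle genes. In the Mylk4 window the receptor core was matched once on the opposite strand (TGACCT), 145 to 140 bases before the start, without the flanking bases of a RORE. A core is present in 14.0% of the 32851 windows of this length, and a RORE in 0.332%. The 2 Mylk3 windows and the Mylk window had 0 matches. Of the 2 Myl2 windows, the downstream one had a receptor core 141 to 136 bases before its start. Myl3 had a CArG box 85 to 76 bases before its start, a motif present in 1.47% of windows. No E-box (6.02% of windows) and no D-box (2.06%) was matched in any of the 7 windows. A match is a description of the letters, and where these genes are bound was not measured.

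Mylk3, the cardiac light chain kinase, varied little. Its lowest, median and highest values were 9.70, 9.79 and 9.85 at ZT0 and 9.60, 9.83 and 9.93 at ZT12. The knockout hearts read 9.89, 9.87, 9.89, 9.84 and 9.91. The 3 groups overlapped. Log2 differences were 0.031 between the times of day (95% interval -0.082 to 0.14), 0.064 between the genotypes at ZT12 (-0.060 to 0.19) and 0.095 for the knockout against ZT0 (-0.029 to 0.22), with limma adjusted p of 0.562 to 0.882. Differences within these intervals could not be resolved with this number of arrays.

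The different shifts of the striated muscle kinases were described within hearts. The difference Mylk4 minus Mylk3 in the same heart was -2.46 ± 0.17 at ZT0 (SD, n = 7), -1.86 ± 0.15 at ZT12 (SD, n = 7) and -3.01 ± 0.21 in the knockout (SD, n = 5), and only its changes are read here. It was 0.61 higher at ZT12 than at ZT0, and no heart overlapped (exact two-sided permutation p = 0.000583, adjusted over 3 comparisons 0.00126). It was 1.15 log2 units lower in the knockout than in wild-type hearts at ZT12 (difference -1.15, exact permutation p = 0.00126, adjusted 0.00126) and 0.55 lower than at ZT0 (difference -0.55, exact permutation p = 0.00126, adjusted 0.00126). Each of these unadjusted p is the smallest that the numbers of hearts allow. Mylk3 varied little (SD 0.028 to 0.10 by group), so the difference largely restates Mylk4. Mylk4 was chosen with its group differences known, and these p-values are no independent support. Without the 5 hearts low in atrial markers both knockout differences, -0.91 and -0.36, had an adjusted exact permutation p of 0.0556 (unadjusted 0.0476, the smallest possible, against ZT12, and 0.0556 against ZT0).

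Mylk, whose transcripts in the heart come largely from vessels and non-muscle cells, read 4.19, 4.65 and 4.94 (lowest, median, highest) at ZT0 and 4.22, 4.61 and 4.77 at ZT12. The knockout hearts read 4.66, 4.66, 4.76, 4.75 and 4.81. All 3 groups overlapped, and the wild-type groups spread more widely (SD 0.24 and 0.17) than the knockout (SD 0.068). Log2 differences were -0.11 between the times (interval -0.31 to 0.095) and 0.18 between the genotypes at ZT12 (-0.042 to 0.40), with limma adjusted p of 0.736 and 0.586. Against ZT0 the knockout was at 0.071 (interval -0.15 to 0.29; limma adjusted p = 0.858). Of 8 smooth muscle markers 0 passed in any comparison, against 0.730% to 1.34% of all genes. The median of these 8 was -0.14 between the times and 0.041 between the genotypes. As deviations from the group means over 19 hearts, Mylk did not rise with the mean of these 8 (Pearson r -0.24, rho -0.27, without a test). Which cells this probe set reads was not measured. A probe set for the whole gene does not separate the long and short kinases and telokin, which are all made from Mylk.

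Myl2 encodes the ventricular regulatory light chain, the substrate of Mylk3. How well its 1 probe set follows Myl2 RNA was not tested, so overlapping groups do not show that Myl2 RNA was stable. The lowest, median and highest values of Myl2 were 7.48, 7.66 and 7.82 at ZT0 and 7.39, 7.61 and 7.76 at ZT12. The knockout hearts read 7.66, 7.72, 7.83, 7.84 and 7.77. Knockout replicates 3, 4 and 5 exceeded all wild-type hearts at ZT12, but the groups overlapped. The difference of 0.18 between the genotypes (SE 0.071, interval 0.032 to 0.33) did not pass over all genes (limma adjusted p = 0.345). Between the times of day the difference was -0.077 (interval -0.21 to 0.057; adjusted p = 0.706 by limma), and knockout against ZT0 gave 0.10 (-0.046 to 0.25; 0.611).

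Myl3 encodes the ventricular essential light chain, which is not the target of these kinases. It read 10.39, 10.50 and 10.58 (lowest, median, highest) at ZT0 and 10.25, 10.46 and 10.52 at ZT12. In the knockout hearts it was at 10.31, 10.47, 10.59, 10.58 and 10.30. Replicates 1 and 5 of the knockout lay low and replicates 3 and 4 high, so that the knockout spread (SD 0.14) was wider than that at ZT0 (SD 0.060). Log2 differences were -0.074 between the times, 0.032 between the genotypes and -0.042 for the knockout against ZT0, with 95% intervals together spanning -0.20 to 0.17 and limma adjusted p of 0.708 to 0.919. The sign of the difference between the genotypes turned when the arrays were quantile normalized again (-0.030).

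Further kinases and the myosin phosphatase were described by lists. Over all genes 1.13% were called between the times, 0.730% between the genotypes and 1.34% for the knockout against ZT0. Against these shares, 0 calls in a list this short, here or below, says little about its genes. The 12 measured kinases were Mylk2, Dapk1, Dapk2, Dapk3, Rock1, Cit, Speg, Camk2a, Camk2b, Camk2d, Camk2g and Prkca. They are not all close relatives of the light chain kinases or known to act on ventricular light chains. Of these 12, 0 rose and 0 fell in any of the 3 comparisons. The nearest between the times of day were Speg, a giant muscle kinase of the light chain kinase family (log2 difference -0.27, limma adjusted p = 0.0529), and the death-associated kinase gene Dapk1 (-0.25, limma adjusted p = 0.118). Speg passed in 6 of 24 alternatives, among them the omission of wild-type ZT12 replicate 1, 4 or 5 (0.0361 to 0.0457). For 10 genes of the myosin phosphatase and its regulators, 0 rose and 0 fell in each comparison. Ppp1cb, its catalytic subunit, was at 0.099 and Ppp1r12a, its targeting subunit, at -0.098 between the times. List medians were -0.065 and -0.042 between the times and 0.068 and 0.061 between the genotypes, for kinases and phosphatase in turn, beside medians of -0.0035 and -0.0030 over all genes.

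Among 10 other myosin light chains, 0 passed between the times of day or between the genotypes at ZT12, against 1.13% and 0.730% of all genes. Myl9, the smooth muscle regulatory chain, was at -0.45 between the times (limma adjusted p = 0.174). The atrial chains Myl7 and Myl4 were at -0.95 and -0.69 in that comparison and at -1.61 and -0.42 between the genotypes, with limma adjusted p of 0.495 to 0.771. Myl1, the fast skeletal essential chain, fell in the knockout against ZT0 (log2 difference -0.83, limma adjusted p = 0.0394). This call was lost without wild-type ZT0 replicate 1, 2, 3 or 5 or knockout replicate 2, 4 or 5 (adjusted p 0.0598 to 0.130), and without the hearts low in atrial markers (0.824). The 19 heavy chain and thick filament genes had 0 calls in each comparison, Myh7, the slow heavy chain, being highest in the knockout at 7.40 ± 1.15 (SD, n = 5) against 6.44 ± 0.57 at ZT12 (SD, n = 7; limma adjusted p = 0.345). Its difference from ZT0 was 1.44 (limma adjusted p = 0.0637) and passed without knockout replicate 2 (0.0394) or 3 (0.0213). Both lists hold dim genes. Group means of Myl6, Myl10, Mylpf, Myh1, Myh2, Myh3, Myh4, Myh8 and Mybpc1 lay below every array median (3.25 to 3.32). For genes this dim, the lack of a call says little.

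Of 12 thin filament genes, Acta1, which encodes skeletal alpha-actin, fell in the knockout from 8.84 ± 0.73 at ZT12 (SD, n = 7) to 7.08 ± 0.86 (SD, n = 5; limma adjusted p = 0.0242). The call was lost without knockout replicate 2 (adjusted p = 0.0633) or 5 (0.0757) and without the hearts low in atrial markers (0.616). Acta1 was also called lower in the knockout than at ZT0 (log2 difference -1.47, limma adjusted p = 0.0458). Leaving out ZT0 replicate 7 or knockout replicate 1 kept this call, and leaving out any other compared heart ended it (0.0619 to 0.150). The other 11 thin filament genes did not pass in either comparison, and 0 of the 12 passed between the times of day. Of 12 cardiac transcription factors, 1 fell at ZT12 and 0 rose: Gata4 was at -0.38 (limma adjusted p = 0.0257), a call lost when ZT0 replicate 4 or ZT12 replicate 2 or 7 was omitted (0.0598 to 0.0658) and without the hearts low in atrial markers (0.120). Of the same list, Gata6 rose in the knockout against ZT0 (0.43, limma adjusted p = 0.00935), a call lost with the atrial marker mean as a covariate (0.0586) and without the low hearts (0.326). Between the genotypes at ZT12 its 0.35 did not pass (limma adjusted p = 0.0533) but did without ZT12 replicate 1 or knockout replicate 3 (0.0449 to 0.0454).

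**Figure D4:**
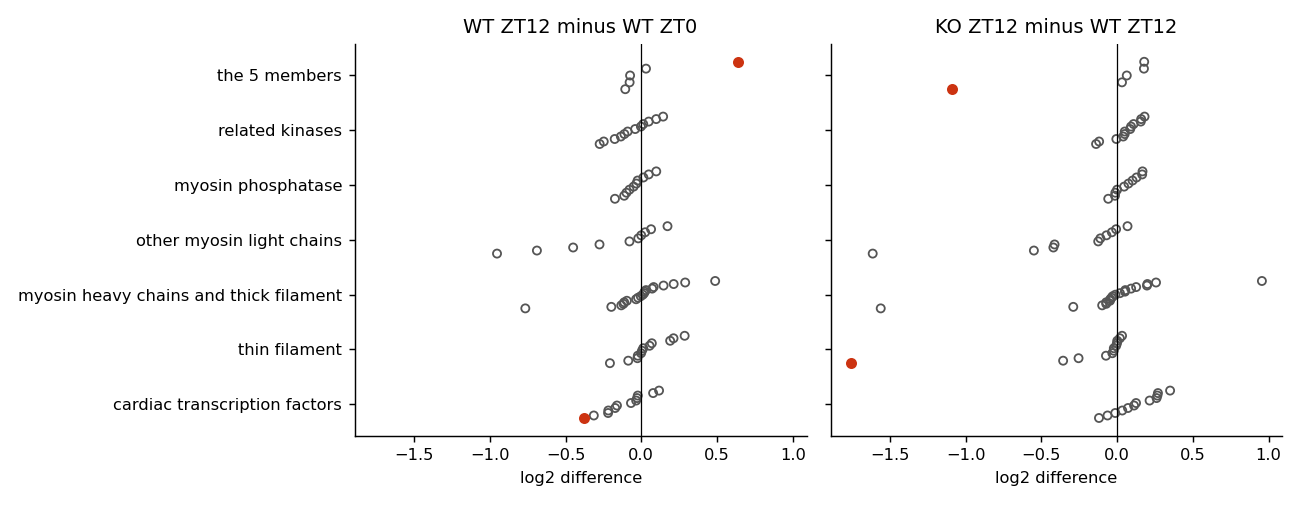
Log2 difference (x axis) of every measured gene (points) of the 5 members and of 6 lists (rows), between the times of day (left) and between the genotypes at ZT12 (right), with genes past an adjusted p of 0.05 filled in red. Mylk4 is filled in both panels on opposite sides of 0, Gata4 only on the left and Acta1 only on the right.

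Other marker lists had few calls, in comparisons where 0.730% to 1.34% of all genes were called. Skeletal muscle (11 genes), endothelial (7), fibroblast (6), leukocyte (6), adipocyte (4) and ventricular markers (4) had medians of -0.041, -0.088, -0.12, -0.038, -0.036 and -0.060 between the times of day. Between the genotypes they were -0.10, 0.036, 0.00068, -0.24, 0.14 and 0.11. Some of these markers were dim, with group means below every array median. They were Myh1, Myh2, Myh4, Mylpf and Pvalb of the skeletal list and S100a8 and Cd3g of the leukocyte list. The ventricular list is Myl2, Myl3, Irx4 and Hey2, so its medians partly restate the members. Their calls were the endothelial receptor gene Kdr, lower at ZT12 (limma adjusted p = 0.00160), and the skeletal marker Myl1, lower in the knockout against ZT0 as given above. Of the atrial list, Gpr22 was called higher in the knockout against ZT0 (0.45, limma adjusted p = 0.0460). The call was lost with the atrial marker mean as a covariate (0.359) and without the hearts low in atrial markers (0.685). That mean includes Gpr22 itself, both as the covariate and in picking the low hearts. Gpr22 kept its call when ZT0 replicate 7 or knockout replicate 1 or 3 was omitted, and lost it when any other compared heart was (0.0607 to 0.150).

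The pattern of Mylk4 over the 19 hearts was compared with that of 10449 genes above the median level, and the 4 genes with the highest Pearson r were Ankrd1 (0.83), Megf9 (0.83), Abca1 (0.81) and Cep112 (0.80). Spearman's rho for them was 0.84, 0.80, 0.84 and 0.86. Within groups, as deviations from the group means, r was 0.50 for Ankrd1, 0.85 for Megf9, 0.38 for Abca1 and 0.029 for Cep112, so that for Cep112 the likeness lay between the groups. Without the 2 hearts farthest from the median of Mylk4, r was 0.78, 0.76, 0.83 and 0.85. Ankrd1, which encodes a titin-bound stress protein, had group means of 11.57, 11.85 and 11.40 in the order ZT0, ZT12 and knockout, and Cep112, a centrosomal protein gene, of 3.89, 4.24 and 3.56. Those of Megf9 were 5.89, 6.10 and 5.78, and those of Abca1, a cholesterol exporter gene, 6.68, 6.91 and 6.45. The 4 genes were picked as the highest of all, so these coefficients are descriptions without a test.

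**Figure D5:**
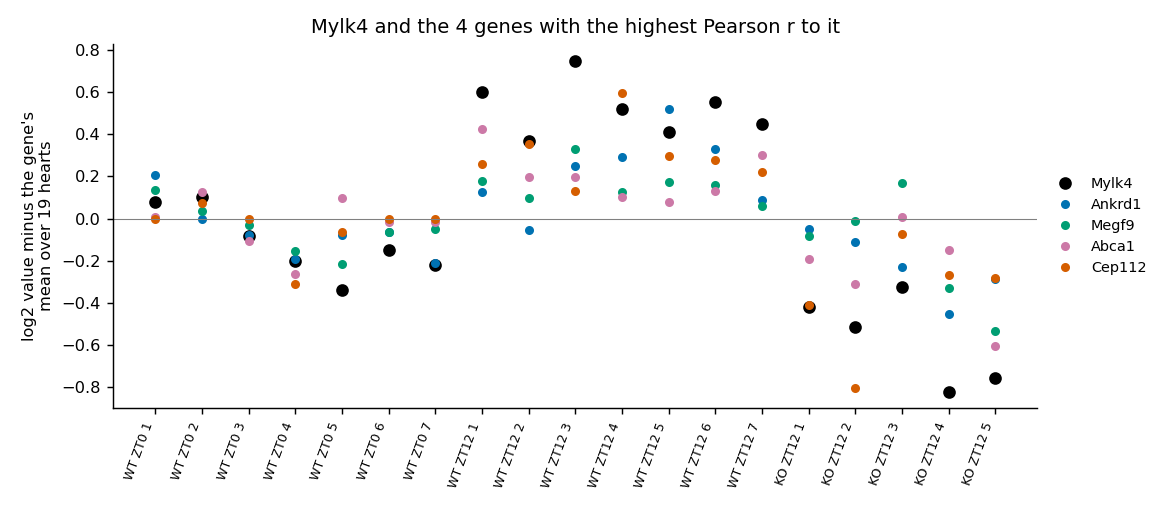
Log2 value minus the gene's own mean over 19 hearts (y axis) for Mylk4 (large black points) and the 4 genes with the highest Pearson r to it, in each heart (x axis). Mylk4 spans from -0.82 in knockout replicate 4 to 0.75 in wild-type ZT12 replicate 3, a wider span than that of Megf9 or Ankrd1.

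For the other members, the gene with the highest r was Ptch1 for Mylk3 (0.82), Frat1 for Mylk (0.73), Abr for Myl2 (0.83) and Thap7 for Myl3 (0.77). Without the 2 farthest hearts these fell to 0.54 for Ptch1 and 0.28 for Frat1, and were 0.72 for Abr and 0.76 for Thap7. The likeness to Mylk3 and Mylk thus rested in large part on 2 hearts each. Of the members, none was among the 4 most alike genes of another.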

How the data were processed

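Total RNA of 19 hearts (300 ng each) was labelled and read on Affymetrix whole-transcript arrays, per the labels' protocols. Per the submitters' processing notes the authors used RMA, and the deposited table has 1 log2 value per probe set and array. The log2 scale was read from the range (0.21 to 12.88). The sources used here give no RMA version. Of 41345 probe sets, 23521 list 1 gene in the platform annotation, and 22180 genes were tested, each by its probe set of highest mean. A single limma model (limma 3.58.1, R 4.3.3) fitted a mean for each group over all 19 arrays, with eBayes and Benjamini-Hochberg adjustment over all genes. A gene was called at an adjusted p under 0.05. The labels call the replicates biological. Array medians ran from 3.25 to 3.32 and correlations between arrays from 0.972 to 0.985, and the number of arrays limits the precision. The fit was tested on simulated data. Same-numbered hearts of different groups did not deviate together (correlations -0.072 to 0.074 over 17 pairs), so the numbers were not taken as pairs.

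Members and lists were chosen with earlier results of these data known. Named genes are the members, up to 4 called genes per list and comparison (or the 2 with the smallest p for lists other than markers), the 4 most alike genes, and reference genes for genotype, time and atrial muscle. Promoter windows came from RefSeq (GRCm38.p6), which held all 5 members.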

Additional observations from a re-analysis of the deposited data

Results flagged for a closer look

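In 114 groups of 5 or 7 hearts, 9 had a heart whose distance from its nearest neighbour exceeded Dixon's 95% limit, where chance gives about 1 in 20. Among the members this was Mylk3 in wild-type ZT12 replicate 5, at 9.60 with the next heart at 9.83. The same heart was low in the atrial gene Sln (5.09, next 8.48). Bmp10, an atrial marker, stood apart in wild-type ZT0 replicate 1 (3.86, next 9.54) and in knockout replicate 1 (9.01, next 4.15). Camk2a was low in knockout replicate 3 (5.51, next 5.86) and Myl10 in knockout replicate 5 (2.50, next 2.87). Myh10 was low in wild-type ZT0 replicate 5 (5.51, next 5.66), and Lmod2 was low in wild-type ZT12 replicate 1 (10.98, next 11.11). Mef2d was high in knockout replicate 5 (7.59, next 7.27).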

How the results depend on the processing

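The rise of Mylk4 between the times of day kept its call in 24 of 24 alternatives (log2 difference 0.60 to 0.71) and its fall between the genotypes in 22 of 22 (-1.15 to -0.87). Against ZT0 the call held in 17 of 22. It was lost with only the arrays compared (-0.45), with the atrial marker mean as covariate (-0.36), without the hearts low in atrial markers (-0.26) and without knockout replicate 4 or 5, the range without single hearts being -0.51 to -0.39. No call was made for Mylk3, Mylk, Myl2 or Myl3 in any alternative. Signs turned for Myl3 between the genotypes when quantile normalized again (-0.030) and without knockout replicate 3 (range without single hearts -0.0028 to 0.069), and for Mylk against ZT0 without ZT0 replicate 2 (range -0.0063 to 0.12). Without the hearts low in atrial markers they turned for Myl1 between the genotypes (0.019) and Mybphl against ZT0 (0.0098). Mybphl is itself 1 of the 9 atrial markers that define these hearts, so leaving them out removes low Mybphl values by the choice of hearts. Fewer hearts were compared there, and the cause was not tested elsewhere. With the replicate block, group labels exchanged within replicate numbers gave Mylk4 minus Mylk3 differences of -1.17 and -0.58 for the knockout against ZT12 and ZT0, both at an exact permutation p of 0.0625, the smallest that 5 pairs allow. Without the low hearts these were -0.91 and -0.36.

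The number of genes called was 250 between the times, 162 between the genotypes and 298 for the knockout against ZT0. With dim probe sets left out it was 431, 283 and 527. Without the hearts low in atrial markers it was 153, 15 and 82. The smooth muscle mean as covariate gave 166 between the times. The intensity trend gave 267 between the genotypes. Only the arrays compared gave 72 and 187 in the knockout comparisons, the replicate block 88 and 182, and the atrial mean as covariate 163 against ZT0. Leaving out single hearts gave 185 to 251, 94 to 161 and 171 to 311. Counts moved by over 1.5 times between the genotypes without ZT12 replicate 2 or 4 or knockout replicate 2, 3, 4 or 5, and against ZT0 without ZT0 replicate 5 or knockout replicate 4 or 5.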

Other observations

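Within groups, the ventricular light chains varied together to some degree. Over 19 hearts, deviations from the group means had a Pearson r of 0.51 between Myl2 and Myl3 (Spearman's rho 0.55) and of 0.46 between Mylk3 and Myl2 (rho 0.44). Mylk4 and Mylk went opposite ways (r -0.50, rho -0.51), and Mylk4 and Mylk3 had an r of 0.082. With the mean of the 9 atrial markers, the deviations had an r of 0.30 for Mylk4, 0.51 for Mylk3, -0.22 for Mylk, 0.0077 for Myl2 and -0.21 for Myl3. Spearman's rho was 0.29, 0.33, -0.22, -0.11 and -0.24 in the same order. The coefficient farthest from 0 for Mylk4 among 5 marker lists was that with the ventricular markers Irx4 and Hey2 (r -0.56, rho -0.46). That list also holds the members Myl2 and Myl3, left out of its mean, with which Mylk4 had an r of -0.16 and 0.12. Mylk3 had an r of -0.37 and a rho of -0.55 with the mean of 10 cardiomyocyte markers. These points share arrays and their normalization, 10 pairs of members and 25 pairs of a member and a marker list were computed, and the coefficients are descriptions without a test.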
